A study of Mus musculus with 4 samples.

Results

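Collagen genes were examined for peaks of the transcription factor STAT3 in the mouse spinal cord. Members were all protein-coding genes whose symbol has the form Col, a number, a and a number in the RefSeq annotation of GRCm38. The rule gave 44 genes out of 21883 protein-coding genes on chromosomes 1 to 19, X and Y, and no measured value entered the choice. They comprise 11 fibrillar collagens, 8 collagens of basement membranes and 25 other collagens.

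The series mapped STAT3 on DNA by ChIP-seq, the sequencing of DNA fragments pulled down with a rabbit antibody to STAT3, in unsorted cells dissociated from spinal cord of C57BL/6 mice. The SCI group received a laminectomy and a moderate contusion of 60 kdyn at thoracic level 9, and tissue of the lesion epicentre was taken 7 days later. The sham group received the laminectomy at the same level alone and was also sampled at 7 days. Each condition has 1 STAT3 library from pooled tissue of 3 mice, and the matching input libraries were not analysed here. With 1 library per condition, no difference between SCI and sham given below has a replicate check or a test. Peaks are positions, not RNA, so the labelled cells could not be checked against marker genes.

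Collagens are the main structural proteins of the extracellular matrix, made of chains that wind around one another in a helix. Fibrillar collagens pack into the fibrils of connective tissue, type IV collagen forms the sheet-like network of basement membranes around vessels and under the meninges, and the remaining types link, anchor or decorate these structures or sit in the cell membrane. In the spinal cord, collagen is normally confined to vessels and meninges, and a contusion is followed by fibrous scar in which fibroblasts deposit collagens I, III and IV. STAT3 responds to signals such as interleukin-6 and binds DNA at sites of the form TTCNNNGAA.

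The peak lists held 36249 SCI and 88765 sham peaks, a ratio of SCI to sham of 0.408. Each peak carries the authors' own score, at least 5 in both lists, which ranks peaks within its list. Ranks are given as the top percent of a list, so that a low value means a strong peak. Scores in different lists may not share a scale and are no measure of a change in binding. Sequencing depth is unknown. A peak was assigned to a gene when its centre lay inside the gene or within 5 kb of it, and it was called shared if SCI and sham peaks had 1 bp or more in common.

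None of the collagen start regions at hand held a peak in either list, as was so for nearly all regions of other genes. RefSeq start regions, from 250 bases before to 50 bases after a start site, were at hand for 35 of the 44 genes and gave 38 regions. Peaks overlapped 0 of the 38 in SCI and 0 in sham. Among all 21262 such regions of protein-coding genes, 132 (0.621%) overlapped an SCI peak and 326 (1.53%) a sham peak. With overlaps this rare, 0 of 38 does not set collagens apart. Genes without a region at hand, among them Col5a2 and Col22a1, could not be judged at their starts. The STAT site TTCNNNGAA, which reads the same on both strands, was found in 2 collagen regions (5.26%), against 7.69% of all regions. They belong to Col28a1, a collagen of peripheral nerve, and Col6a5, a chain of the beaded-filament type VI family. The sites are printed because they are the only ones found, with the STAT site in capitals and 10 bases on each side, from GRCm38.p6 on the minus strand. They lie at chr6:8192703-8192731 for Col28a1 and at chr9:105960834-105960862 for Col6a5.
Col28a1: accctccctcTTCAGAGAAacttgttgaa
Col6a5: ggtcgtggatTTCTGAGAAactctgcctt
Counted from the start site, the first base of the motif lies at position -104 for Col28a1 and -209 for Col6a5. The Col28a1 start lay 88.3 kb from the nearest SCI peak and 12.6 kb from the nearest sham peak. For Col6a5 the distances were 15.4 kb in SCI and 14.1 kb in sham. Collagen starts without a STAT site lay 2.18 to 116.9 kb from the nearest SCI peak and 0.85 to 59.1 kb from the nearest sham peak. The distances of both regions with a site thus lay within the range of the others.

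Among the 35 genes with a start region, the start sites closest to a peak belonged to Col8a2 and Col10a1, both with a sham peak. Col8a2 encodes a short-chain collagen of the corneal endothelial membrane, and Col10a1 the short-chain collagen of hypertrophic cartilage. The nearest sham peak was centred 855 bp from the Col8a2 start, with the lowest score of the list, 5. It was 1020 bp from the Col10a1 start, with a score of 18.1. The nearest SCI peaks were 7.14 kb and 20.6 kb away. The 250 bases before both starts are shown because, of the 38 regions at hand, they are the nearest to a peak, at chr4:126286544-126286793 and chr10:34389731-34389980, plus strand, GRCm38.p6, and TTCNNNGAA does not occur in either.
Col8a2: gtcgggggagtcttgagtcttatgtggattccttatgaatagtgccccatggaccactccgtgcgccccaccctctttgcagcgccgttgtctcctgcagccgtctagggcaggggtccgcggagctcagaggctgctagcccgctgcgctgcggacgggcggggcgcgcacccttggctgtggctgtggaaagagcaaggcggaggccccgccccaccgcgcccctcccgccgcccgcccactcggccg
Col10a1: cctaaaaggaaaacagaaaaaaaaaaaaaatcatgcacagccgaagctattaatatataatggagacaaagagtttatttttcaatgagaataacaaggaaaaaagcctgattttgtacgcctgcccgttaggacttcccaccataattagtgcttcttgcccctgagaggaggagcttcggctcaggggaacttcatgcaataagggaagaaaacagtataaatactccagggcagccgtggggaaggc

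Collagens did not have a peak more often than other genes of their length. An SCI peak was found at 30 of the 44 genes and a sham peak at 38, against 43.9% of all protein-coding genes for SCI and 66.7% for sham. Collagen genes are long, with a median of 114410 bp against 17170 bp for all protein-coding genes, and longer genes hold more peaks. Each collagen was therefore set beside the 200 other protein-coding genes nearest to it in length. These gave an expected 33.1 genes with an SCI peak and 40.3 with a sham peak, both above the observed counts. Within 50 kb, 42 collagens had an SCI peak and 43 a sham peak, where like-length genes gave 41.1 and 43.6, and where 84.2 and 95.6% of all protein-coding genes had one. At that window nearly every gene of this length has a peak, so the count says little about a single gene.

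**Figure D1:**
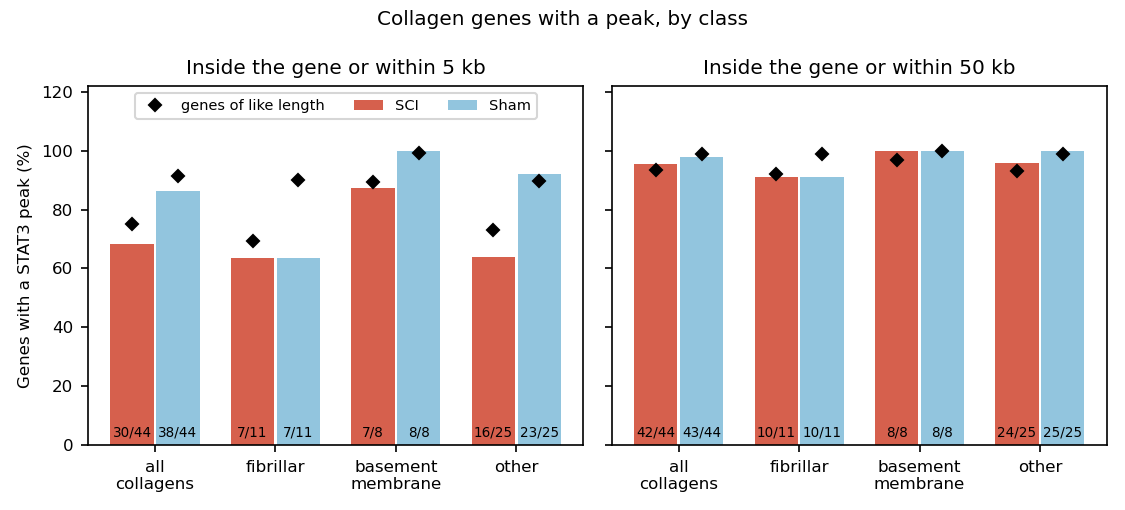
Percent of collagen genes with a STAT3 peak inside the gene or within 5 kb (left) and 50 kb (right), for SCI (red bars) and sham (blue bars), with the number of genes written in each bar. Diamonds give the percent among the 200 protein-coding genes nearest in length to each member, and the fibrillar sham bar, 7 of 11, lies farthest below its diamond.

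The number of peaks was also below that of like-length genes in sham, while the SCI interval includes 1. The 44 genes held 78 SCI peaks, where like-length genes gave 89.97, a ratio of 0.867 (exact Poisson 95% interval 0.685 to 1.08). In sham they held 168 peaks against 220.4, a ratio of 0.762 (0.651 to 0.887). With genes compared within deciles of length, the SCI ratio was 0.715 (0.565 to 0.893). With peaks at or above the median score of their list it was 0.619 (0.414 to 0.888), so that both intervals excluded 1. Deciles match length less closely, and gave 109.1 expected SCI peaks. With the 50 genes nearest in length the SCI ratio was 0.888 (0.702 to 1.11). With genes also matched on peak density within 1 Mb it was 0.883 (0.698 to 1.10), and both of these intervals include 1. These intervals cover counting error only, and whether the ratios of SCI and sham differ was not tested. Single genes had 0 to 9 SCI peaks, with a median of 1, and 0 to 13 sham peaks, with a median of 3. In SCI 12 genes lay above the median of their like-length genes, 13 on it and 19 below. In sham 8 lay above it, 7 on it and 29 below.

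**Figure D2:**
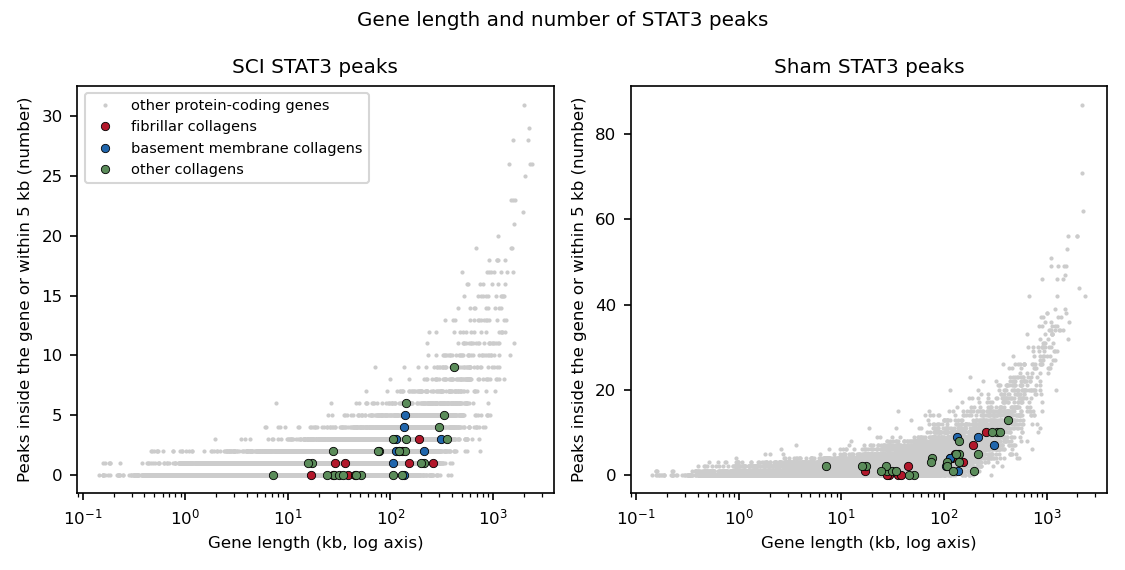
Gene length on a log axis (kb) against the number of STAT3 peaks inside the gene or within 5 kb, for SCI (left) and sham (right). Each grey point is a protein-coding gene and coloured points are collagens by class, which lie within the cloud of other genes, with Col25a1 highest among them at 9 SCI and 13 sham peaks.

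SCI peaks at collagens ranked mostly below the median of their list, while for sham the interval includes an even split. Of the 78 SCI peaks 29 ranked above the median of the SCI list, 37.2% (exact binomial 95% interval 26.5 to 48.9%), and 3 ranked in the top 10%. Of the 168 sham peaks 75 ranked above the median, 44.6% (37.0 to 52.5%), and 18 in the top 10%. The lowest score of either list, 5, was carried by 9 SCI and 16 sham peaks. Gene bodies held 73 of the 78 SCI and 158 of the 168 sham peaks. Like-length genes gave 81.8 of 89.97 in SCI and 200.8 of 220.4 in sham, so most peaks lay in gene bodies there too. The gene bodies also make up most of the sequence counted.

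Along the gene, sham peaks were most frequent toward the 3′ end, where Col23a1 and Col24a1 contributed many of the peaks. The direction of transcription was known for 35 collagens. With each gene cut into 3 equal stretches, the first, middle and last held 21, 14 and 20 SCI peaks. The same stretches held 28, 42 and 49 sham peaks. The last stretch thus had 36.4% of the SCI and 41.2% of the sham peaks. Col23a1 and Col24a1, with 10 sham peaks each, had most of them in the last stretch, so the sham share is not a trait of collagens in general. In other protein-coding genes no shorter than the shortest and no longer than the longest of these collagens, it had 32.5% of the SCI and 31.8% of the sham peaks. Those genes were not matched to the collagens on length. Peaks of 1 gene are not independent, and these shares were not tested.

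Fibrillar collagens had no position in common between the lists. An SCI peak was present at 7 of the 11 genes and a sham peak at 7, where like-length genes gave 7.63 and 9.90. The class held 11 SCI and 32 sham peaks, 0.601 and 0.706 of the like-length expectation. Of the 11 SCI peaks, 0 were shared (0 to 28.5%, exact binomial), an interval that includes the 21.6% of the whole SCI list.

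The genes for the most abundant fibril chains differed in which list had a peak. Col1a2, which encodes the second chain of type I collagen, had 1 SCI peak and no sham peak. It lay within Col1a2 at chromosome 6, 4520822 to 4520985, and its score of 8.17 placed it in the top 39.5%. The nearest sham peak was 14.2 kb from the gene. Col1a1, the first chain of type I collagen, had no SCI peak and 1 sham peak, 4575 bp outside the gene on chromosome 11 at 94931555 to 94931744, with a score of 10.3. That peak lay inside the gene Gm46293, and the nearest SCI peak was 44.4 kb from Col1a1. Within 50 kb Col1a2 had 4 SCI peaks and 1 sham peak, and Col1a1 had 1 SCI peak and 7 sham peaks. The type I chain genes thus stood on opposite sides of the comparison, each by a single peak at 5 kb. Of the genes of the length of Col1a1, 38% had an SCI peak and 68.5% a sham peak. Of those of the length of Col1a2, 58.5% had an SCI peak and 86.5% a sham peak. Having a peak in 1 list alone is therefore not unusual at Col1a1, and a contrast between the chains was not tested. Col3a1, the type III chain that accompanies type I in scars, had none in either list, with the nearest SCI peak at 16.0 kb and the nearest sham peak at 13.7 kb. Among like-length genes 52.5% had an SCI peak and 88.5% a sham peak.

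The type V genes encode chains that regulate fibril diameter. Col5a1 had 1 SCI and 3 sham peaks, Col5a2 had 2 and 5, and Col5a3 had 0 and 2. The medians of their like-length genes also ran higher in sham, with 2 SCI and 6 sham peaks for Col5a1 and for Col5a2, and 1 and 2 for Col5a3. The strongest of these was a sham peak inside Col5a2, on chromosome 1 at 45502570 to 45502759, centred 618 bp from an end of the gene. It scored 24.7 and ranked in the top 5.02%. The highest SCI peak at Col5a2 scored 7.94 and that at Col5a1, on chromosome 2 at 27924005 to 27924168, scored 8.44, the highest SCI score at any fibrillar collagen. The highest sham peak at Col5a1 scored 18.3 and the higher of the pair at Col5a3 scored 5.38.

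Of the type II and type XI genes, which encode chains of cartilage fibrils, only Col11a1 had peaks in both lists. Col11a1 held 3 SCI and 7 sham peaks, equal to the medians of its like-length genes, with highest scores of 6.84 in SCI and 9.95 in sham. Its SCI peak on chromosome 3 at 114204717 to 114204880 ended just before a sham peak at 114204891 to 114205080, without overlap. Col2a1, the main chain of cartilage, had 1 SCI peak, 4378 bp outside the gene with a score of 5.86, and no sham peak within 50 kb. Col11a2 had no peak in either list, with the nearest sham peak at 12.9 kb and the nearest SCI peak at 71.7 kb. Col2a1 and Col11a2 are short, 29.1 and 27.8 kb, against 190.3 kb for Col11a1. Of the like-length genes of Col2a1, 51.5% had an SCI peak and 84.5% a sham peak. For Col11a2 these shares were 52 and 80%, and for Col11a1 92.5 and 99%.

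Col24a1 and Col27a1 encode minor fibrillar collagens, and Col24a1 is the longest gene of the class. Col24a1 held 1 SCI peak, at the lowest score of 5, and 10 sham peaks. Of its like-length genes 85.5% had more SCI peaks and 33.0% more sham peaks. One sham peak of Col24a1, on chromosome 3 at 145530973 to 145531162, scored 46.8 (top 0.483%), the highest value at any collagen gene in either list. Col27a1 held 2 SCI and 4 sham peaks, with highest scores of 6.55 in SCI and 11.3 in sham.

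Basement membrane collagens had peaks in both lists at 7 of 8 genes. An SCI peak was present at 7 genes and a sham peak at 8, where like-length genes gave 7.16 and 7.93. The class held 20 SCI and 41 sham peaks, 0.972 and 0.815 of the like-length expectation. Only 5 of the 20 SCI peaks (25%, exact interval 8.66 to 49.1%) ranked above the median of the SCI list and 12 of the 41 sham peaks (29.3%, 16.1 to 45.5%) above that of the sham list. The number of positions shared with the other list was 5, all at type IV genes, which held 16 of the 20 SCI peaks. These made up 25% of the SCI peaks of the class (exact interval 8.66 to 49.1%), which includes the 21.6% of the whole SCI list.

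Type IV genes lie in pairs that face each other head to head, and none of the facing ends carried a peak. Peaks near gene ends are rare in general. Among all protein-coding genes 5.7% had an SCI peak and 13.1% a sham peak within 1 kb of either end. Their absence at these few ends thus does not set type IV genes apart. Col4a1 and Col4a2, the chains of most basement membranes, overlap by 85 bp at their facing ends. The pair held 2 SCI and 5 sham peaks, and the nearest to the midpoint of the facing ends were 5.10 kb away in SCI and 22.0 kb away in sham. Col4a1 had 2 SCI and 4 sham peaks. Col4a2 had no SCI peak and 1 sham peak, and 92% of its like-length genes had an SCI peak. The Col4a2 sham peak, on chromosome 8 at 11398753 to 11398942, scored 10.8. An SCI peak inside Col4a1 lay 5056 bp from Col4a2, just beyond the 5 kb window.

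Col4a3 and Col4a4 encode chains of the kidney filter membrane, overlap by 114 bp, and held the most SCI peaks of the type IV pairs, 9, with 14 in sham. Col4a4 had 5 SCI and 5 sham peaks, and 10.5% of its like-length genes had as many SCI peaks or more. Its highest SCI peak, on chromosome 1 at 82464041 to 82464204, scored 13.3 in the top 12.7%, and its highest sham peak scored 20.2. Col4a3 had 4 SCI and 9 sham peaks. Its highest sham peak, on chromosome 1 at 82635092 to 82635281, scored 40.6 (top 0.871%) and had no SCI counterpart. The highest SCI peak at Col4a3 scored 7.10.

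Col4a5 and Col4a6, on chromosome X with 1274 bp between them, held 5 SCI and 16 sham peaks as a pair. Col4a5 had 2 SCI and 9 sham peaks with highest scores of 8.58 in SCI and 21.2 in sham. Col4a6 had 3 SCI peaks and 7 sham peaks with highest scores of 5.37 in SCI and 18.3 in sham. The peaks nearest to the midpoint of this pair were 39.2 kb away in SCI and 34.4 kb away in sham.

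**Figure D3:**
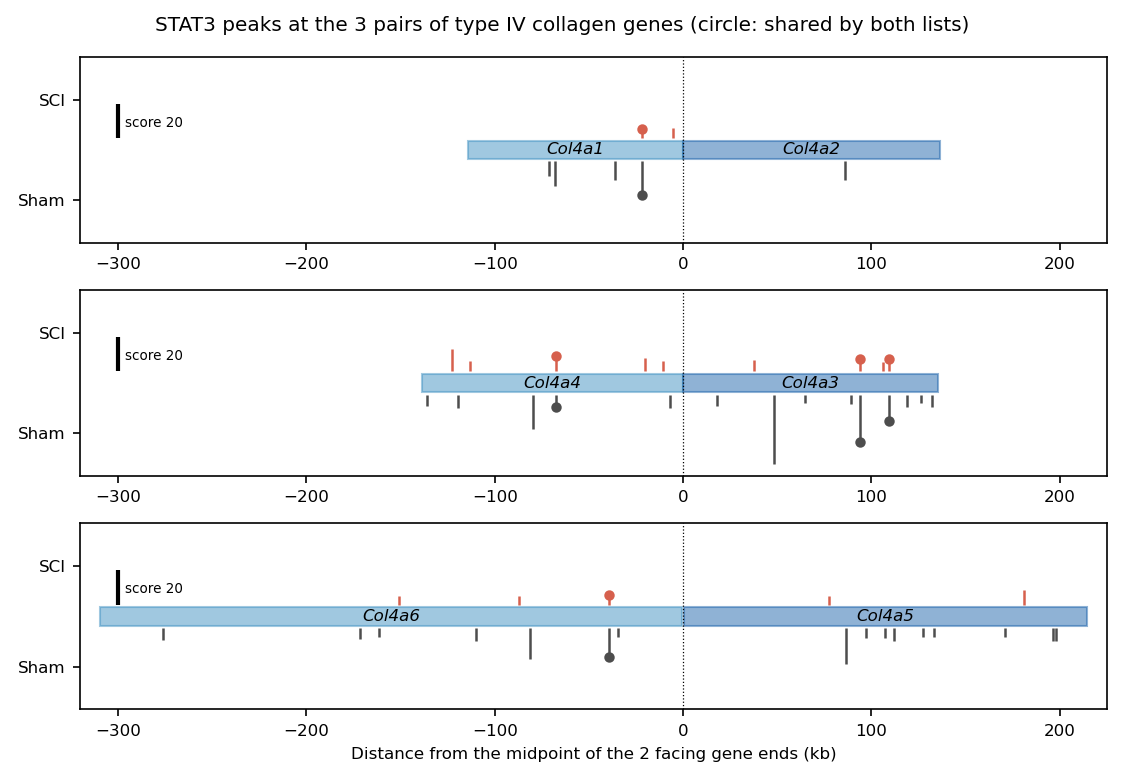
STAT3 peaks along the pairs of type IV collagen genes, by distance from the midpoint of the facing gene ends (kb), with SCI peaks as red lines above the genes and sham peaks as grey lines below. The height of a line is the peak's score within its own list (scale bar: 20), circles mark the 5 positions shared by both lists, and no peak lies closer than 5.10 kb to a midpoint.

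The multiplexin genes Col15a1 and Col18a1, whose products bridge basement membranes to the matrix beneath, held few peaks, none of them shared. In the whole lists 21.6% of the SCI and 8.84% of the sham peaks were shared. With so few peaks, the absence of a shared position does not set these genes apart. Col15a1 had 1 SCI and 2 sham peaks, with highest scores of 5.93 in SCI and 7.34 in sham. Col18a1, the source of the fragment endostatin, had 3 SCI and 4 sham peaks, with highest scores of 7.46 in SCI and 6.86 in sham. The highest peak of each gene in each list ranked between the top 49.2 and 69.6%.

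Among the other collagens, an SCI peak was present at 16 of 25 genes and a sham peak at 23, where like-length genes gave 18.3 and 22.4. They held 47 SCI and 95 sham peaks, 0.920 and 0.762 of the like-length expectation. A peak in sham alone was found at 7 of them (28%), where 29.3% of all protein-coding genes had one, and a peak in SCI alone at 0, where 6.51% had one. These background shares are not matched on length, and like-length shares of these patterns were not computed for this class alone. Whether the class differs in them from genes of its length was therefore not tested.

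Col26a1, which encodes a secreted protein with collagen domains, had the most SCI peaks relative to genes of its length. It was singled out after its values were seen. Col26a1 held 6 SCI and 8 sham peaks. Among its like-length genes 3.5% had as many SCI peaks or more, and 30% as many sham peaks or more. It is the lowest such share for SCI among the 44 genes, and the choice among 44 genes was not allowed for. Its SCI peak on chromosome 5 at 136753302 to 136753465 had the highest SCI score at any collagen, 22.8 (top 2.15%). Sham had a peak over it with a score of 7.51, in the top 55.9%. The next SCI peak, at 136758722 to 136758885, scored 18.1 in the top 5.04% and had no sham counterpart. At 136826722 to 136826885 SCI scored 10.3, and the sham peak there scored 19.6. At 136803859 to 136804022 the SCI peak scored 8.6 and the sham peak 14.1. So 3 of its 6 SCI peaks were shared, and the strongest position in SCI was not the strongest in sham.

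Membrane-spanning collagens held peaks at all but the shortest gene, Col17a1. Col25a1, a neuronal membrane collagen found in amyloid plaques, is the longest collagen gene with 419527 bp and held 9 SCI and 13 sham peaks. Of its like-length genes 11.5% had as many SCI peaks or more and 58.5% as many sham peaks or more. Col23a1 held 4 SCI and 10 sham peaks, and Col13a1, a collagen of the neuromuscular junction, held 3 and 3. Nearly all genes of such lengths have a peak. Of the like-length genes of Col25a1, Col23a1 and Col13a1, 90.5 to 99% had an SCI peak and 99.5 to 100% a sham peak. Col17a1, the collagen of epidermal hemidesmosomes, had none in either list, with the nearest SCI peak at 31.6 kb and the nearest sham peak at 9.77 kb. Of its like-length genes 58.5% had an SCI peak and 85.5% a sham peak.

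Type VI genes encode the chains of beaded filaments and held between 0 and 5 peaks per list. On chromosome 10, Col6a1 had 1 SCI and 2 sham peaks and Col6a2 had 0 and 1. On chromosome 9, Col6a4 had 0 and 3, Col6a5 had 3 and 2, and Col6a6 had 2 and 5. Col6a3 held 2 SCI and 4 sham peaks. Col6a5 was 1 of the 2 genes with an SCI peak within 1 kb of a gene end, on chromosome 9 at 105856957 to 105857120, at the lowest score of 5. Among all protein-coding genes 5.7% had an SCI peak that near an end and 13.1% a sham peak, and among collagens 2 and 4 of 44 did.

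Collagens that decorate fibrils ranged from none to 10 peaks per list. Col9a1 had 2 SCI and 3 sham peaks, Col9a2 had 1 and 2, and Col9a3 had 0 and 1, all chains of the cartilage collagen IX. Col19a1 held 5 and 10 and Col22a1, a collagen of tissue junctions, held 3 and 10. Col14a1 held 1 and 5, and Col12a1 held 2 and 1. Of the genes of the length of Col12a1, 94.0% had more sham peaks. Col20a1 had 0 and 1, and Col16a1 had none in either list, with the nearest SCI peak at 68.6 kb and the nearest sham peak at 7.69 kb. Col22a1 was the other gene with an SCI peak within 1 kb of an end, on chromosome 15 at 72150302 to 72150465, with a score of 5.17.

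The remaining members were mostly short genes. Col8a1, a collagen of vessel walls, had no SCI peak and 5 sham peaks, although 92.5% of its like-length genes had an SCI peak. One of them, on chromosome 16 at 57710957 to 57711042, scored 46.3 and ranked in the top 0.511%. Col8a2 had 2 SCI and 2 sham peaks. Col7a1, the anchoring fibril collagen of skin, had 0 and 1. Col10a1 had 0 and 2, the higher with a score of 23.9, and both sham peaks lay inside the gene Nt5dc1. Col28a1 had 1 SCI and 1 sham peak, and its SCI peak, 2506 bp outside the gene, scored 12.3 in the top 15.9%.

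**Figure D4:**
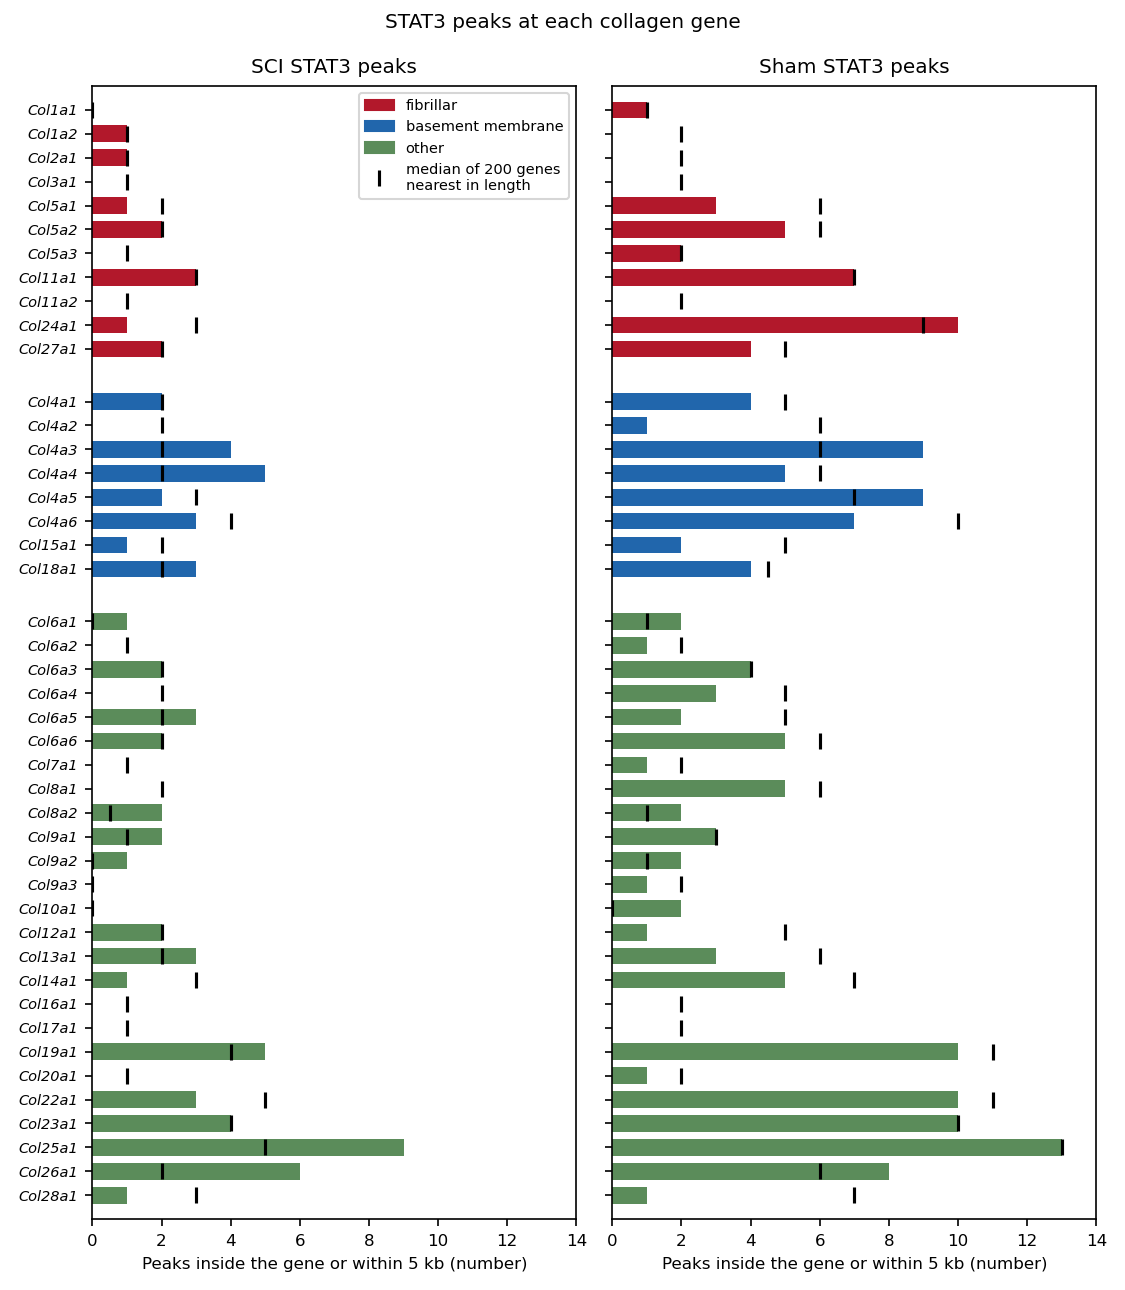
Number of STAT3 peaks inside each collagen gene or within 5 kb, for SCI (left) and sham (right), with bars coloured by class. Black ticks give the median of the 200 protein-coding genes nearest in length. Col26a1 (6), Col25a1 (9) and Col4a4 (5) exceed their SCI ticks most, and Col28a1 and Col4a2 (1 each) lie far below their sham ticks.

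Between the lists, 28 collagens had peaks in both, 2 in SCI alone, 10 in sham alone and 4 in neither. Like-length genes gave 31.7, 1.35, 8.52 and 2.40. Among all protein-coding genes 37.3% had peaks in both lists, 6.51% in SCI alone, 29.3% in sham alone and 26.8% in neither. The counts for 1 list alone were therefore close to those of other genes of this length. The SCI-alone genes were Col1a2 and Col2a1. Those with a sham peak alone were Col1a1, Col5a3, Col4a2, Col6a2, Col6a4, Col7a1, Col8a1, Col9a3, Col10a1 and Col20a1. When sham was limited to its 36249 strongest peaks, 8 collagens had a peak in SCI alone and 5 in sham alone. The shares of all or like-length genes were not computed for that setting, so these counts say nothing particular to collagens.

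The share of peaks common to both lists was, within counting error, that of the whole lists. Of the 78 SCI peaks 13 had a sham partner, 16.7% (exact interval 9.18 to 26.8%), against 21.6% (21.2 to 22.1%) of the whole SCI list. The 13 sham peaks at these positions made up 7.74% (4.18 to 12.9%) of the 168, against 8.84% (8.66 to 9.03%) of the whole sham list. The shared positions lay at 10 genes, 3 at Col26a1, 2 at Col4a3 and 1 each at Col4a1, Col4a4, Col4a6, Col6a1, Col6a6, Col8a2, Col9a2 and Col25a1. Of these 13 positions 4 ranked higher in the SCI list and 9 (69.2%, exact interval 38.6 to 90.9%) ranked higher in the sham list. Over all 7845 shared SCI peaks 54.6% ranked higher in sham, which lies within that interval.

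The positions with a better rank in SCI lay at Col26a1, Col9a2, Col6a6 and Col4a4. The Col9a2 position, 3855 bp outside the gene on chromosome 4 at 121035630 to 121035793, scored 16.6 in SCI, in the top 6.69%. The sham peak there scored 11.2, in the top 29.2%. At Col6a6 the SCI peak at 105831130 to 105831293 on chromosome 9 lay in the top 22.2% and the sham peak in the top 33.0%. At Col4a4 they lay in the top 32.6% in SCI and 58.2% in sham.

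The 3 widest gaps in the other direction were at type IV genes. The shared peak inside Col4a1, on chromosome 8 at 11290733 to 11290896, scored 5.34 in SCI, in the top 84.0%, and 19.7 in sham, in the top 9.16%. The shared peak inside Col4a6, on chromosome X at 141435488 to 141435651, lay in the top 83.8% in SCI and 12.7% in sham. A shared peak inside Col4a3 at 82680810 to 82680973 lay in the top 55.2% in SCI and 3.67% in sham, and the other, at 82695950 to 82696113, in the top 52.2 and 16.0%. The Col25a1 position ranked in the top 47.2% in SCI and 10.8% in sham, the Col8a2 position in the top 52.7 and 11.4%, and the Col6a1 position in the top 38.2 and 29.4%.

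**Figure D5:**
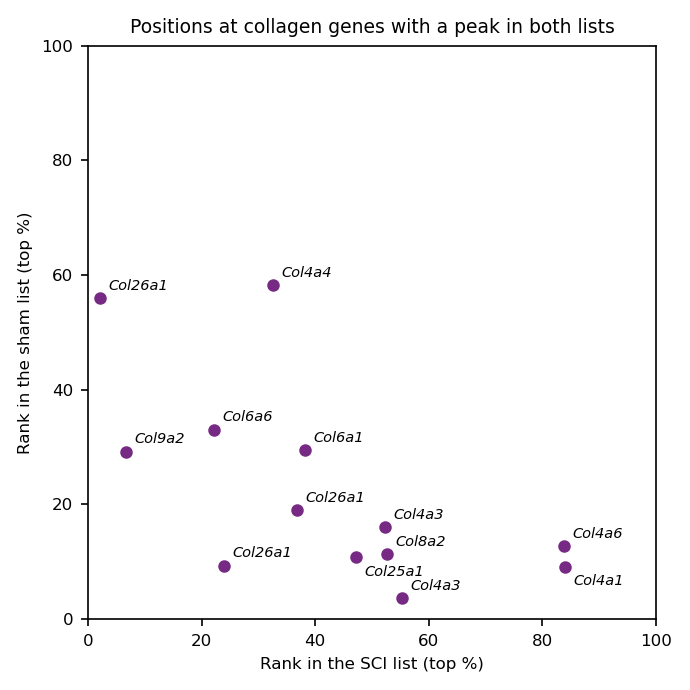
Rank of the 13 positions at collagen genes with a peak in both lists, as top percent of the SCI list (horizontal) and of the sham list (vertical), where 0 is the strongest peak. Each point is a position, labelled by its gene. Col26a1 has the best SCI rank (2.15%), and Col4a1 and Col4a6 lie at the lower right, weak in SCI and strong in sham.

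Genes that make, process or bind collagen had peaks at similar rates to genes of their length, with fewer sham peaks in number. Of 30 genes for synthesis and processing, 20 had an SCI peak and 26 a sham peak, where like-length genes gave 16.6 and 23.7. Their number of peaks was 36 in SCI, against 33.2 expected, and 57 in sham, against 82.6. Peaks in both lists were found at 18 of the 30, where 37.3% of all protein-coding genes had them. Among these were Serpinh1, the collagen chaperone, with 1 SCI and 2 sham peaks, and Plod2, a lysyl hydroxylase, with 2 and 2. An SCI peak alone was found at 2 of the 30, near the 6.51% of all protein-coding genes. These were P3h1, a prolyl 3-hydroxylase, and Adamts14, a procollagen protease. Lox, the crosslinking lysyl oxidase, and Ppib, a prolyl isomerase, had none in either list, where 26.8% of all protein-coding genes had none. Like-length shares were not computed for these patterns. Of 10 collagen receptor genes, 7 had an SCI peak and all 10 a sham peak, where like-length genes gave 6.82 and 8.89. Itga11, an integrin chain of fibroblasts, had 3 SCI and 4 sham peaks, and Itga1, an integrin chain for type IV collagen, had 0 and 3.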

How the data were processed

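STAT3 ChIP-seq peak lists of SCI and sham spinal cord were used as deposited. Reads were aligned with Bowtie2 to mm10, per the submitters' processing notes. The sources used here do not name the caller, control or cutoff behind the peaks, which are not given. Deposited lists hold, for each peak, the authors' score, whose scale is not stated. They also hold a −log10 value in the place of a q-value, as deposited by the authors, which lay between 3.22 and 4.36 in SCI and between 3.27 and 4.05 in sham and was not used further. Each list was matched to its sample by title.

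Peaks of the autosomes, X and Y were assigned by their centre to RefSeq genes of GRCm38.p6, whose primary chromosomes have mm10 coordinates. For each member, the 200 non-collagen protein-coding genes nearest in length gave the expected share with a peak and the expected number of peaks. For the synthesis and receptor lists, the members of that list were left out as well. Intervals are exact binomial (Clopper-Pearson) or exact Poisson at 95% and cover counting error only. Fibrillar, basement membrane and other collagens, the synthesis and receptor lists, the alternatives and the rule for named genes were chosen with earlier results of these data known. By that rule the text names all fibrillar and basement membrane collagens, and the others with a peak in 1 list alone, a shared peak or no peak. The text also gives the remaining members, so that all 44 are accounted for. Counting was tested on simulated peaks. Computation ran in Python 3.11.15 (scipy 1.17.1, pandas 2.3.3, numpy 2.4.6), with plots by matplotlib 3.10.9.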

Additional observations from a re-analysis of the deposited data

How the results depend on the processing

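No paired analysis was possible because each condition has 1 library, and no replicate could be left out. The observed count of collagens with a peak within 5 kb minus the like-length expectation was negative in all 10 alternatives. It lay between -7.20 and -0.80 genes for SCI and between -7.33 and -1.40 for sham. The lowest values, with peaks at or above the list median, had intervals that exclude 0. These were -13.6 to -0.22 for SCI and -14.3 to -1.18 for sham, for counting error only. In the other alternatives the intervals include 0. The ratio of peaks to the like-length expectation lay between 0.619 and 0.893 in SCI and between 0.610 and 0.787 in sham. Counts within 50 kb moved by less than 1.5 times. The smaller window gives fewer peaks near gene ends by construction. For the other changes the cause was not tested.

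Within 1 kb of a gene end, 2 collagens had an SCI peak (2 peaks) and 4 a sham peak (4 peaks, ratio 0.610, interval 0.166 to 1.56, which includes 1). These were 0 fibrillar, 0 basement membrane and 2 other collagens in SCI, and 1, 0 and 3 in sham, all 4 of them in sham alone, with 0 shared peaks. Of the synthesis genes 3 had an SCI and 2 a sham peak there, and of the receptor genes 1 and 1. With each list limited to its upper scores, from the median up, 18 collagens had an SCI peak, of them 3 fibrillar and 3 basement membrane. They held 29 SCI peaks (ratio 0.619, interval 0.414 to 0.888) and 75 sham peaks, with 6 shared peaks and 4 genes in SCI alone. Synthesis genes then numbered 13 in SCI and 17 in sham, and receptor genes 4 and 5. When sham was limited to its strongest peaks, as many as SCI has, collagens held 64 sham peaks, with 15 other collagens having one, 8 genes in SCI alone and 5 in sham alone, 16 synthesis genes and 5 receptor genes with a sham peak. With centres inside the gene only, 1 collagen had a peak in SCI alone. No share of other genes was computed for these alternative counts in 1 list alone. With deciles of length the SCI ratio was 0.715 (0.565 to 0.893), which excludes 1, unlike the reported SCI interval, and the sham ratio was 0.633 (0.541 to 0.736). Deciles match length less closely than the nearest genes do. Depth is unknown, so what it limits cannot be stated.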
